A study of Mus musculus with 20 samples.

Results

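The EGF family ligands and their ErbB receptors were followed here as 10 genes chosen by family membership: 6 ligand genes (Egf, Areg, Ereg, Hbegf, Tgfa and Btc) and 4 receptor genes (Egfr, Erbb2, Erbb3 and Erbb4), out of 47729 genes counted in every library. The 10 genes were chosen with earlier results of these data known. All 10 passed the filter on low counts, which left 18731 genes for testing. Their transcripts were counted in 20 libraries of mouse kidney cells that had been enriched with magnetic beads for Sca-1, the product of Ly6a and a surface marker used to isolate stem and progenitor cells. Roxadustat inhibits the prolyl hydroxylases that mark the hypoxia-inducible factors (HIF) for degradation. The libraries fall into 6 groups. At day 0 the cells came straight from the kidney, of untreated control mice (n = 2) and of mice that had received roxadustat by intraperitoneal injection at 33 mg/kg over 7 days (n = 2). At day 7 and at day 21 the cells had been cultured in 20% oxygen, as control (n = 4 at each time) or, according to the design text of the series, in medium with roxadustat (n = 4 at each time). The labels name no genotype and leave unsaid if the cells put into roxadustat medium had come from injected or untreated mice. They call the cells mesenchymal stem cell-like. Nor do they give the origin of the replicates (animals or dishes), and p-values below therefore measure the spread between these libraries alone.

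ErbB receptors are tyrosine kinases that pair when a ligand binds and then switch on the RAS-ERK and PI3K pathways. EGF, amphiregulin (Areg) and TGF-alpha (Tgfa) bind EGFR, whereas HB-EGF (Hbegf), betacellulin (Btc) and epiregulin (Ereg) bind both EGFR and ERBB4. ERBB2 has no known soluble ligand and serves as a partner, and ERBB3 binds neuregulins but has a weak kinase of its own. The ligands are made as membrane proteins that proteases shed from the cell. In the kidney the EGF precursor is a product of the thick ascending limb and the distal convoluted tubule, and EGFR signalling is known for its part in tubule repair and in fibrosis.

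Total counts ran from 8502011 to 19903160 per library, and no pair of libraries was identical. The biological coefficient of variation within a group was 16.3% in fresh control libraries, 9% in fresh roxadustat libraries and 4.07% to 9.11% in culture. Control libraries of day 21 formed close pairs, replicates 1 with 2 and 3 with 4: the typical log2 difference between libraries was 0.228 and 0.243 within and 0.305 to 0.349 across them. The label of a mesenchymal cell was set against markers of 10 genes per cell type. Fresh cells held abundant tubule transcripts, with a summed level of proximal tubule markers of 22310 to 23660 CPM (counts scaled by TMM to a common library size) over the 4 libraries. Fibroblast markers summed to 263 to 446 CPM in fresh control cells and to 47260 to 50520 CPM in control cells at day 21, and defining markers were present there (Pdgfra at 153 ± 2.23 and Thy1 at 250.1 ± 9.83 CPM, mean ± SD, n = 4). Marker sums follow their most abundant genes. That of control cells at day 21 was mostly Col1a1, Col1a2 and Col3a1 (9926 ± 2884, 17260 ± 471 and 17850 ± 1738 CPM, n = 4). In roxadustat cells at day 21 fibroblast markers summed to 2518 to 3762 CPM, with Pdgfra at 4.42 ± 0.527 and Thy1 at 9.03 ± 1.15 CPM (n = 4). Ly6a itself was found in all 20 libraries, between 158 and 715 CPM. RNA of whole cell mixtures was measured, so fewer cells of a type and less RNA per cell cannot be told apart in any value below.

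In fresh kidney cells the family was dominated by Egf among the ligands and by Erbb3 among the receptors. Egf (ENSMUSG00000028017, chromosome 3, 129677565 to 129755316, minus strand, GRCm38), the gene of the EGF precursor, was at 6153 and 5499 CPM in control and 4953 and 5465 CPM in roxadustat cells. The 2 groups lay side by side without overlap, but their difference was not called (log2 fold change -0.16 ± 0.17, SE). A call here is an adjusted p under 0.05 in edgeR's quasi-likelihood test fitted to all 20 libraries, adjusted over all tested genes. Markers of the thick ascending limb and distal convoluted tubule summed to 18370 to 22640 CPM in the control and 14490 to 17010 CPM in the roxadustat libraries, with a median log2 fold change of the 10 markers of -0.23. Of the exon bases of Egf 9.82% overlap genes on the other strand (6330410L21Rik and Gm42697), which an unstranded library cannot separate. These antisense genes reached at most 39.1 CPM.

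Levels of different genes are compared only per kilobase of exon (CPM per kb). On that scale Egf made up 84.3% ± 3.25 of the summed level of the 6 ligands in fresh control cells and 87.6% ± 1.06 in fresh roxadustat cells (SD, n = 2 each). Hbegf, which encodes a ligand that binds heparin, made up 15.2% ± 3.14 and 11.8% ± 1.06, so that the other 4 ligands together held very little. Among the 4 receptors Erbb3 took 46.6% ± 3.29 in control and 45.6% ± 2.98 in roxadustat cells. Egfr took 19.3% ± 1.97 and 20.5% ± 0.308, Erbb2 17.6% ± 1.94 and 18.1% ± 0.049, and Erbb4 16.5% ± 3.32 and 15.9% ± 2.73. The 3 smaller shares lay close together in both arms.

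**Figure D1:**
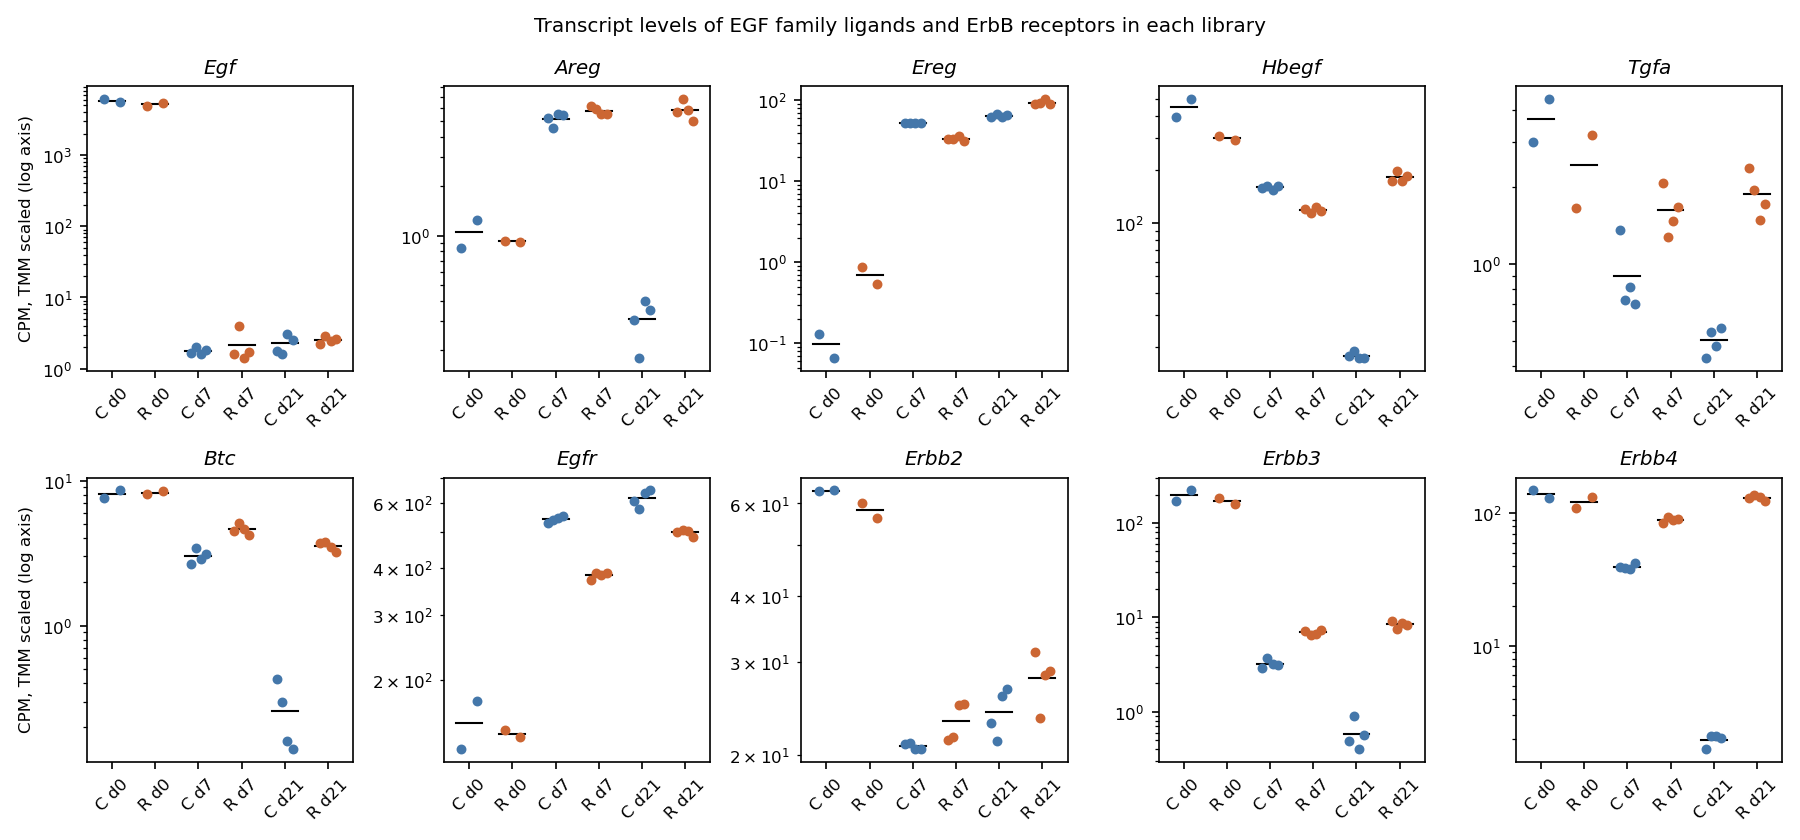
Level of each ligand and receptor gene in every library, in CPM scaled by TMM on a log axis. Points are libraries, black bars are group means, C (blue) is control and R (orange) roxadustat at days 0, 7 and 21. Egf lies near 5826 CPM in fresh control cells and under 5 CPM in all 16 cultured libraries, and Erbb4 drops to 1.97 CPM only in control cells at day 21.

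At day 0 roxadustat and control cells differed in 2 of the 10 genes, Ereg (higher) and Hbegf (lower). Over all tested genes 6.83% were called, 2.73% higher and 4.11% lower (of the calls 39.9% were higher, and 57.2% with scaling by library size alone). Hbegf (ENSMUSG00000024486, chromosome 18) was at 396 and 501 CPM in control and 308 and 294 CPM in roxadustat cells. The roxadustat libraries were both below the control libraries, and Hbegf fell by 0.58 ± 0.08 on the log2 scale (adjusted p = 4.33e-05). Ereg (ENSMUSG00000029377, chromosome 5, 91074622 to 91093646, plus strand) was close to the limit of detection in fresh cells, with 3 reads in both control libraries together and 20 in both roxadustat libraries together. The ratio of these counts, scaled to library size, was 7.22 with an exact 95% interval of 2.14 to 37.95 that covers counting error only. Its call (adjusted p = 0.0037) was lost when control replicate 2 was left out (adjusted p = 0.0609) and when roxadustat replicate 1 was (0.151). In a fit of the 4 fresh libraries alone edgeR called 0 of 9 tested members (1, Hbegf, had an unadjusted p under 0.05, adjusted p = 0.187), and DESeq2 on those libraries called Hbegf (adjusted p = 0.0314). Over all genes that edgeR fit called only 23 of 15575. The shares of all genes and the marker counts given here for day 0 are from the fit of all 20 libraries. Beside these values, 9 of 10 endothelial and 5 of 10 epithelial markers were lower and 8 of 10 macrophage and 6 of 10 fibroblast markers higher in the fresh roxadustat libraries, and their part in the differences was not tested.

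The remaining 8 genes were not called at day 0, and for Egfr, Erbb3 and Erbb4 this rested on single libraries. Egfr (ENSMUSG00000020122, chromosome 11, 16752203 to 16918158, plus strand), the receptor of all 6 ligands, was at 130 and 176 CPM in control and 146 and 140 CPM in roxadustat cells, and the groups overlapped. Erbb3 (ENSMUSG00000018166, chromosome 10, 128567523 to 128589652, minus strand) was at 171 and 221 against 183 and 157 CPM, also with overlap. Without control replicate 1, Egfr (log2 fold change -0.30, adjusted p = 0.0113) and Erbb3 (-0.39, adjusted p = 0.0165) were called lower. Erbb4 was called lower on leaving out either control replicate 2 (-0.31, adjusted p = 0.043) or replicate 2 of the roxadustat group (-0.35, adjusted p = 0.0322). The lowly expressed ligand genes Areg (0.844 and 1.25 against 0.927 and 0.913 CPM), Tgfa (2.99 and 4.41 against 1.66 and 3.19 CPM) and Btc (7.59 and 8.56 against 8.08 and 8.44 CPM) overlapped between the arms. Erbb2, at 63.4 and 63.5 against 60.1 and 56.4 CPM, did not overlap but was not called.

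Large changes in the family went with culture. Between day 0 and day 7 all 10 genes were called in control cells, 3 higher (Areg, Ereg, Egfr) and 7 lower, in a setting where 76.5% of all tested genes were called, 37% higher and 39.5% lower. In roxadustat cells 9 genes were called, the same 3 higher and 6 lower, with Tgfa not called (all genes: 74.6%, 37.1% higher and 37.6% lower). With scaling by library size alone, 61.7% of the calls of all genes were higher in control cells in place of 48.3%, and 64.6% in place of 49.7% in roxadustat cells. Day 7 cells had been in culture and day 0 cells had not, so time and culture cannot be told apart. In roxadustat cells the exposure also changed, from injection to medium with roxadustat, with or without an earlier injection.

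Egf showed the widest range of the 10 genes. Its level at day 7 was 1.68, 2.01, 1.62 and 1.82 CPM in control cells and 1.58, 4.01, 1.42 and 1.72 CPM in roxadustat cells. All cultured libraries thus lay far below the fresh ones, with log2 fold changes of -11.66 ± 0.22 in control and -11.20 ± 0.21 in roxadustat cells (adjusted p = 1.75e-19 and 2.37e-19). The library that stood apart, roxadustat replicate 2, also held more Umod, the uromodulin gene of the thick ascending limb, at 4.44 CPM, where the other 15 cultured libraries held 0 to 1.28 CPM. All 10 markers of the thick ascending limb and distal tubule fell with Egf in both arms, to sums of 20.06 to 24.2 CPM in control and 37.27 to 47.44 CPM in roxadustat cells at day 7, with Pvalb at 0. Most of these sums was the magnesium channel gene Trpm6 (17.8 ± 1.36 and 34.7 ± 0.962 CPM, n = 4 each). Their part in the fall of Egf was not tested.

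Ereg moved the other way. It rose from 0.13 and 0.0658 CPM in fresh control cells to 52.7, 52.5, 52.3 and 53.0 CPM at day 7, a ratio of counts of 537 (exact 95% interval 183.5 to 2603). In roxadustat cells it rose from 0.861 and 0.532 CPM to 33.7, 32.9, 35.9 and 31.8 CPM (log2 fold change 5.55 ± 0.15, adjusted p = 1.70e-22). Every cultured library was above every fresh one. Areg (ENSMUSG00000029378, chromosome 5, 91139599 to 91148432, plus strand), the neighbour of Ereg on that chromosome, rose from 1.05 ± 0.287 to 5.15 ± 0.438 CPM in control cells and from 0.92 ± 0.0103 to 5.73 ± 0.299 CPM in roxadustat cells (SD, n = 2 and 4), 4.89-fold and 6.19-fold. The other ligands fell in control cells: Hbegf was 2.83-fold lower at day 7, Tgfa 4.16-fold and Btc 2.66-fold. In roxadustat cells Hbegf was 2.54-fold and Btc 1.79-fold lower, and Tgfa went from 2.42 ± 1.09 to 1.62 ± 0.338 CPM and was not called (called lower without day 0 replicate 1 or day 7 replicate 1, adjusted p = 0.0117 and 0.0364, and with DESeq2's size factors, 0.037).

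Of the receptors only Egfr rose from day 0 to day 7. It went from 153 ± 32.5 to 542 ± 11.4 CPM in control cells (3.54-fold, adjusted p = 1.64e-17) and from 143 ± 4.03 to 383 ± 7.29 CPM in roxadustat cells (2.67-fold, adjusted p = 4.32e-15). Erbb3 fell the most of the receptors, from 196 ± 35.5 to 3.24 ± 0.352 CPM in control and from 170 ± 18.5 to 6.92 ± 0.430 CPM in roxadustat cells, 60.2-fold and 24.5-fold lower. Erbb2 (ENSMUSG00000062312, chromosome 11, 98412470 to 98437716, plus strand), the partner receptor, was 3.05-fold and 2.51-fold lower. Erbb4 (ENSMUSG00000062209, chromosome 1, 68032186 to 69108059, minus strand) was 3.54-fold lower in control but 1.35-fold lower in roxadustat cells, the latter with a log2 fold change of 0.0067 and no call when libraries were scaled by size alone.

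Scaled per kilobase, the make-up of both sums turned over. The 4 receptors summed to 69.6 ± 7.75 CPM per kb in fresh control cells and 55.6 ± 1.02 CPM per kb at day 7, and Egfr then held 86.1% ± 0.318 of it (n = 4). The ligand sum went from 613 ± 25.1 to 50.8 ± 0.659 CPM per kb, and at day 7 Hbegf held 64.7% ± 0.769, Ereg 25.1% ± 0.206 and Areg 8.34% ± 0.740. Erbb3 held 0.969% ± 0.105 of the receptors and Egf 0.312% ± 0.0274 of the ligands by then. The leading ligand and the leading receptor of fresh cells had both become minor members.

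**Figure D2:**
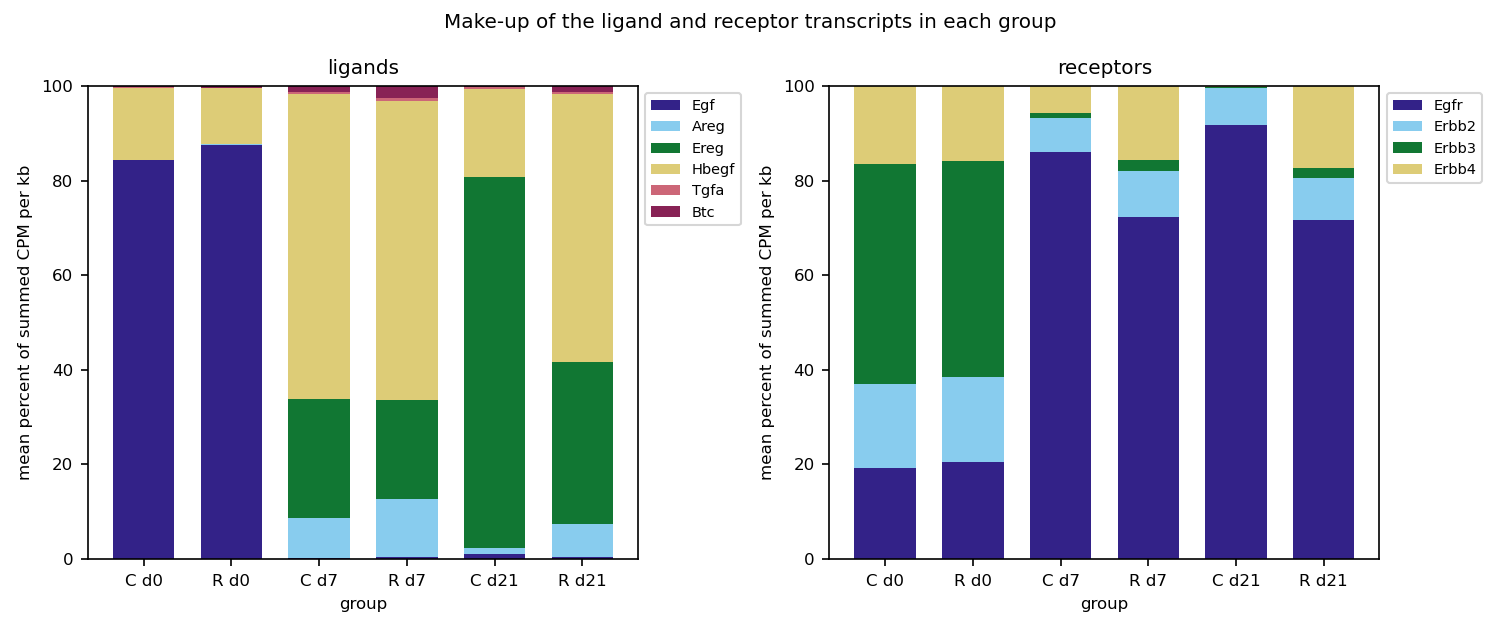
Mean share of each gene in the summed level per kilobase of the 6 ligands (left) and the 4 receptors (right) in each group, in percent, with C for control and R for roxadustat. Egf fills 84.3% of the ligand bar of fresh control cells and Ereg 78.5% of that of control cells at day 21, where Egfr fills 91.8% of the receptor bar.

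At day 7 roxadustat cells differed from control cells in 7 of the 10 genes, 4 higher (Tgfa, Btc, Erbb3, Erbb4) and 3 lower (Ereg, Hbegf, Egfr). This is a larger share than the 47.7% of all tested genes that were called (24.1% higher and 23.6% lower), but with 10 genes it was not tested against it. Erbb4, the receptor for HB-EGF, betacellulin, epiregulin and neuregulins, was at 39.6, 38.9, 37.9 and 42.0 CPM in control and 84.3, 94.5, 89.3 and 91.5 CPM in roxadustat cells. Every roxadustat library was above every control library, with a log2 fold change of 1.18 ± 0.06 (adjusted p = 4.90e-15). Erbb3 was at 2.91, 3.74, 3.19 and 3.11 CPM against 7.20, 6.51, 6.60 and 7.37 CPM, again without overlap (1.09 ± 0.13, adjusted p = 3.25e-08). Betacellulin's gene Btc (ENSMUSG00000082361, chromosome 5, 91357261 to 91402994, minus strand) was 1.52-fold and Tgfa (ENSMUSG00000029999, chromosome 6, 86195223 to 86275719, plus strand) 1.83-fold higher, at levels of only 3.02 ± 0.345 and 0.898 ± 0.311 CPM in control cells. The libraries of Tgfa overlapped between the groups and those of Btc did not. Egf, which overlapped, was not called. Areg (4.52 to 5.46 against 5.47 to 6.10 CPM) and Erbb2 (20.5 to 21.1 against 21.4 to 25.0 CPM) did not overlap but were not called. With scaling by library size alone Erbb2 was called higher (log2 fold change 0.23, adjusted p = 0.0186).

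The genes lower in roxadustat cells at day 7 were the ligands and the receptor that held the largest shares per kilobase at that time. Ereg was at 52.6 ± 0.332 CPM in control and 33.6 ± 1.72 CPM in roxadustat cells and fell by 0.65 ± 0.06 on the log2 scale (adjusted p = 5.79e-10). Hbegf was at 159 ± 3.44 and 118 ± 3.68 CPM (-0.42 ± 0.06, adjusted p = 1.10e-06) and Egfr at 542 ± 11.4 and 383 ± 7.29 CPM (-0.50 ± 0.06, adjusted p = 1.03e-07). None of the 3 overlapped between the arms. All 10 markers of kidney epithelium were higher (sums of 441 to 467 CPM in control and 992 to 1055 CPM in roxadustat cells), 6 of 10 fibroblast markers were lower (10480 to 11070 against 6538 to 7597 CPM) and all 10 macrophage markers were lower (346 to 354 against 16.9 to 18.7 CPM). Of 10 pericyte and smooth muscle markers 8 were lower and 1 higher (9228 to 9595 against 3102 to 3168 CPM). Over all tested genes 23.6% were called lower and 24.1% higher. The part of these cell types in the 7 differences was not tested.

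At day 21 9 of the 10 genes differed between the arms, with 8 genes higher in roxadustat cells, Egfr lower and Egf not called. Of all tested genes 62.9% were called, 30% higher and 32.9% lower (with scaling by library size alone, 72.5% of the calls were higher in place of 47.7%). The median log2 fold change of the 10 genes was 2.63, and that of all tested genes was 0. A change of at least 2-fold was called in 6 of the 10 (Areg, Hbegf, Tgfa, Btc, Erbb3, Erbb4, all higher) and in 28.2% of all genes. The 10 genes were chosen with earlier results of these data known, so these values are no test of the family.

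Erbb4 had the largest difference. It was at 1.66, 2.10, 2.08 and 2.04 CPM in control cells and at 132, 137, 133 and 124 CPM in roxadustat cells. No control library came near a roxadustat library, and the fitted difference was 66.8-fold (log2 fold change 6.06 ± 0.09, adjusted p = 1.87e-27). The roxadustat level at day 21 overlapped those of both fresh groups (131 and 149 CPM in control, 110 and 132 CPM in roxadustat cells). Erbb3 was at 0.491, 0.900, 0.399 and 0.562 CPM in control and 9.19, 7.61, 8.65 and 8.21 CPM in roxadustat cells, 13.7-fold higher (adjusted p = 2.22e-16). Unlike Erbb4, Erbb3 in these roxadustat cells lay far below its fresh level of 157 to 221 CPM.

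Ligands with the largest differences were Areg, Btc and Hbegf. Areg, which encodes amphiregulin, was at 0.307, 0.180, 0.399 and 0.351 CPM in control and 5.65, 6.77, 5.77 and 4.97 CPM in roxadustat cells (18.7-fold, adjusted p = 4.28e-16). Btc was at 0.430, 0.300, 0.160 and 0.141 CPM against 3.74, 3.77, 3.48 and 3.25 CPM (12.96-fold, adjusted p = 7.20e-14), with the lower control values in the pair of replicates 3 and 4. Hbegf was at 17.6, 19.0, 17.3 and 17.3 CPM against 172, 198, 172 and 185 CPM (10.2-fold, log2 fold change 3.35 ± 0.07, adjusted p = 9.46e-25). In none of the 3 did a roxadustat library reach down to a control library. The control levels of Areg and Btc rested on 18 and 16 reads over the 4 libraries (3 to 5 and 2 to 7 per library), and that of Hbegf on 1066. The sizes of the first 2 differences are therefore less certain. Tgfa was at 0.430, 0.540, 0.479 and 0.562 CPM against 2.38, 1.94, 1.49 and 1.72 CPM (3.74-fold, adjusted p = 3.74e-06).

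The other 4 genes differed less. Ereg was at 62.1, 67.4, 62.7 and 66.2 CPM in control and 89.3, 92.5, 104 and 88.8 CPM in roxadustat cells, 1.45-fold higher and thus in the direction opposite to day 7. Egfr was at 607, 579, 637 and 648 CPM against 502, 508, 505 and 486 CPM (log2 fold change -0.30 ± 0.06, adjusted p = 9.41e-05). Its libraries did not overlap, but when libraries were scaled by size alone the value was 0.0462 and not called (adjusted p = 0.515), and the median of all genes moved by 0.34 under that scaling. Erbb2 was at 23.0, 21.2, 25.9 and 26.7 CPM against 31.4, 23.5, 28.4 and 28.9 CPM, with overlap. Its call (1.16-fold, adjusted p = 0.0271) was lost in 4 of 8 refits that left out 1 library each, on leaving out control replicate 1 or 2 (adjusted p = 0.0724 and 0.13) or roxadustat replicate 1 or 4 (0.122 and 0.0689), and without a filter on low counts (0.0656). Egf stayed at trace level in both arms, at 1.62 to 3.11 CPM in control and 2.25 to 2.89 CPM in roxadustat cells.

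**Figure D3:**
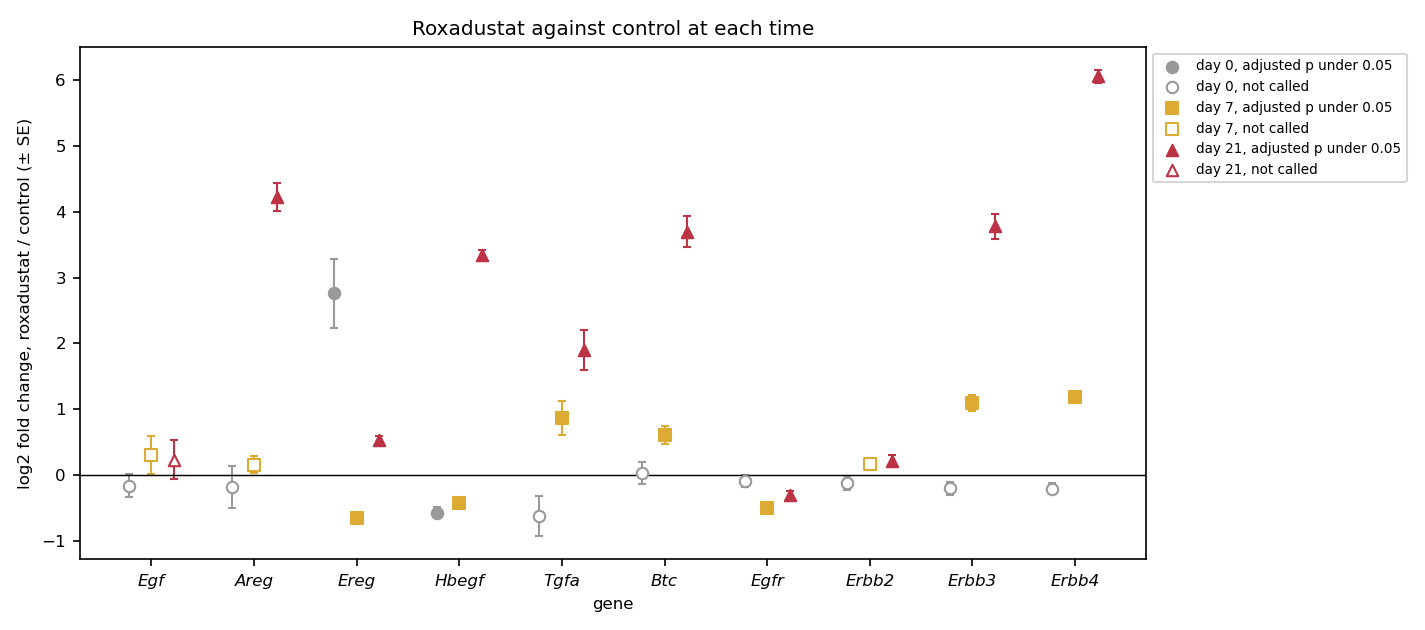
Fitted log2 fold change of roxadustat against control cells for the 10 genes at days 0, 7 and 21, with SE as error bars and filled symbols for an adjusted p under 0.05. At day 21 Erbb4 (6.06) and Areg (4.23) are highest, and Egfr (-0.30) is the only filled symbol below 0 at that time.

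Per kilobase, Egfr held 91.8% ± 0.348 of the receptor level in control cells at day 21 and 71.7% ± 0.749 in roxadustat cells (n = 4 each). Erbb4 held 0.268% ± 0.0311 and 17.3% ± 0.484, beside 16.5% in fresh control cells. The receptor sums were similar, 59.4 ± 3.22 and 61.6 ± 1.18 CPM per kb. Ligand sums were not, with 19.9 ± 0.669 CPM per kb in control and 66.3 ± 3.01 CPM per kb in roxadustat cells. Ereg made up 78.5% ± 0.625 of the ligands in control cells and 34.2% ± 2.502 in roxadustat cells, where Hbegf led with 56.6% ± 2.44. The ratio of Egfr to Erbb4 per kilobase was 345 ± 40.8 in control and 4.16 ± 0.0852 in roxadustat cells.

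Promoters of the genes that were at least 2-fold higher at day 21 are shown because these genes shared that difference. They did not share their course in culture: from day 0 to day 7 in control cells Areg rose while Hbegf, Tgfa, Btc, Erbb3 and Erbb4 fell. Of the 10 genes 7 were matched in the RefSeq table used (build GRCm38.p6) and searched. Ereg and Erbb3 were not matched in it, and Hbegf was left out beforehand. The 250 bases before the start are printed 5′ to 3′ on the strand of the gene, with matches to the motifs searched in capitals, for Areg (chr5:91139349-91139598, plus), Tgfa (chr6:86194972-86195221, plus), Btc (chr5:91402995-91403244, minus) and Erbb4 (chr1:69108060-69108309, minus).
Areg: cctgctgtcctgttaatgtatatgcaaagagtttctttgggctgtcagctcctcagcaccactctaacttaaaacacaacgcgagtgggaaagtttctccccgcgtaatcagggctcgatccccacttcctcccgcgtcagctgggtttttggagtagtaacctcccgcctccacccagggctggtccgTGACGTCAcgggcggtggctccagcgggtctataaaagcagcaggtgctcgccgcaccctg
Tgfa: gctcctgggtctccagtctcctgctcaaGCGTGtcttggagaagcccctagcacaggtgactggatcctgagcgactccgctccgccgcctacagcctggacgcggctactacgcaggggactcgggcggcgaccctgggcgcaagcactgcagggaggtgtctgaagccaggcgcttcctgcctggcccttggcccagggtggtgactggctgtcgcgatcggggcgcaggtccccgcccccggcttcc
Btc: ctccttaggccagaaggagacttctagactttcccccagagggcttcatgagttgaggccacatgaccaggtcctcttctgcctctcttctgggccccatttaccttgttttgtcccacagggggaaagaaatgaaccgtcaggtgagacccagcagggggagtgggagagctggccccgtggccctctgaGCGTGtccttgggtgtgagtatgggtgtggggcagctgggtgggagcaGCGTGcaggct
Erbb4: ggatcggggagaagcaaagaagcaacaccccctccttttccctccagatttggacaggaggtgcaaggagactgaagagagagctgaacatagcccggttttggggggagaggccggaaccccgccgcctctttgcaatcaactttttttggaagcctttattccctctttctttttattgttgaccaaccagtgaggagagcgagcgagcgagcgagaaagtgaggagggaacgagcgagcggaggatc

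On both strands the core letters of the HIF site (ACGTG and GCGTG), the cAMP response element TGACGTCA and the AP-1 site TGANTCA were searched. Areg has TGACGTCA 61 to 54 bases before its start, a motif that 1.55% of 32851 promoters of the same length hold. Tgfa has GCGTG 222 to 218 bases before its start, and Btc has it 59 to 55 and 11 to 7 bases before its start. GCGTG occurs in 28.2% of all these promoters and either HIF core in 38.6%. ACGTG (16.6% of promoters) and TGANTCA (6.75%) were not in the windows of the 7 genes, and Erbb4 held none of the 4 motifs. A match is a string of letters, and no binding was measured here.

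The 2 arms already differed at day 7, and between day 7 and day 21 they changed in different ways. In control cells 9 genes were called, 6 lower (Areg, Hbegf, Tgfa, Btc, Erbb3, Erbb4) and 3 higher (Ereg, Egfr, Erbb2), against 68.7% of all tested genes (34.5% higher, 34.3% lower; of the calls 50.1% were higher, and 38.2% with scaling by library size alone). With that scaling all 3 higher calls were lost: Ereg had a log2 fold change of 0.0968 (adjusted p = 0.161), Erbb2 of 0.014 (0.893) and Egfr of -0.0118 (0.88). In roxadustat cells 7 were called, 6 higher (Ereg, Hbegf, Egfr, Erbb2, Erbb3, Erbb4) and Btc lower, against 61.5% of all tested genes (28.6% higher, 32.9% lower). Erbb4 went from 39.6 ± 1.73 to 1.97 ± 0.208 CPM in control cells, 20.1-fold lower, and from 89.9 ± 4.30 to 131 ± 5.14 CPM in roxadustat cells, 1.46-fold higher. Hbegf was 8.90-fold lower in control and 1.54-fold higher in roxadustat cells. Areg was 16.6-fold lower in control cells (18 reads in all at day 21) and level in roxadustat cells (5.73 ± 0.299 and 5.79 ± 0.745 CPM). For these 3 genes the larger change between day 7 and day 21 was thus in control cells.

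Smaller changes in this interval depended on single libraries or settings. In control cells the calls of Tgfa (1.75-fold lower, adjusted p = 0.0378) and Erbb2 (1.16-fold higher, 0.0262) were each lost in 5 of 8 refits that left out 1 library (adjusted p of 0.0501 to 0.153 and 0.0516 to 0.104), that of Erbb2 also without a filter on low counts (0.0591). In roxadustat cells Erbb3 (1.21-fold higher) lost its call in 4 of 8 refits (0.0597 to 0.104), with the replicate block (0.051) and without a filter (0.0708). Btc (1.30-fold lower) lost it in 2 of 8 refits (0.0634 and 0.0714), with scaling by library size alone (0.0716) and by DESeq2 (0.0631). Egf in roxadustat cells was called higher at day 21 without day 7 replicate 2 (log2 fold change 0.71, adjusted p = 0.00147), the library with more Umod.

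The effect of roxadustat was also tested for a change over time, as an interaction. At day 0 it is the effect of injection into mice, and later that of roxadustat in the medium, with or without an earlier injection. In the first interval a change over time and a change of exposure therefore cannot be told apart. From day 0 to day 7 the effect changed for 6 genes, upward for Tgfa, Btc, Erbb3 and Erbb4 and downward for Ereg and Egfr (all tested genes: 28.9%, 15.5% upward and 13.4% downward). Among these the log2 difference of the effects was -3.41 ± 0.52 for Ereg, whose day 0 levels rested on 3 and 20 reads, and 1.39 ± 0.10 for Erbb4 (adjusted p = 1.19e-05 and 4.88e-11). Btc was at the edge (0.57 ± 0.22, adjusted p = 0.04998) and lost its call in 9 of 12 refits without 1 library (0.058 to 0.163) and with DESeq2's size factors (0.0659), library size alone (0.0506), no filter (0.122), the replicate block (0.0552) and DESeq2 (0.086). Tgfa lost its call without roxadustat day 0 replicate 1 (0.0636) and Egfr without control day 0 replicate 1 (0.0986). From day 7 to day 21 the effect changed upward for 7 genes (all tested genes: 44.7%, 20.9% upward and 23.8% downward; of the calls 46.8% were upward, and 72.2% with scaling by library size alone). It rose by 4.88 ± 0.12 for Erbb4, 4.07 ± 0.26 for Areg, 3.77 ± 0.09 for Hbegf, 3.09 ± 0.29 for Btc and 2.69 ± 0.25 for Erbb3 on the log2 scale. Ereg rose by 1.18 ± 0.08 (adjusted p = 2.24e-12), and Tgfa by 1.03 ± 0.41 with a call that was lost in 11 of 16 refits (0.0506 to 0.131), without a filter (0.0531) and with the replicate block (0.0525). Egfr (0.20 ± 0.09, adjusted p = 0.0668) was not called, but was called upward with DESeq2's size factors (adjusted p = 0.0177), library size alone (3.30e-05), a mean of at least 1 CPM (0.0337), DESeq2 (0.012) and only the groups compared (0.00321), and without control day 21 replicate 4 (0.0498).

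Markers of cell types also differed between the arms at day 21, where 30% of all tested genes were called higher and 32.9% lower. All 10 markers of kidney epithelium were higher in roxadustat cells, with sums of 42.1 to 49.0 CPM in control and 1451 to 1506 CPM in roxadustat libraries. Pkhd1 made up most of the roxadustat sums (1019 ± 36.2 CPM, n = 4). Epcam was at 2.83 ± 0.442 CPM there and at 139 ± 23.0 CPM in fresh roxadustat cells (n = 2). Cdh1 was at 2.06 ± 0.347 and 255.5 ± 14.1 CPM in these groups. Cdh16, a cadherin of kidney epithelium, was at 2.82 ± 0.380 CPM in control and 115 ± 2.94 CPM in roxadustat cells (n = 4 each). All 10 fibroblast markers and all 10 macrophage markers were lower, the latter at 292 to 344 CPM in control and 16.4 to 19.1 CPM in roxadustat libraries. Proximal tubule markers summed to 10.1 to 15.9 CPM in control and 299 to 309 CPM in roxadustat libraries, with 5 of 10 higher and Slc22a6 at 0 in both. Markers of the thick ascending limb and distal tubule summed to 3.02 to 3.67 CPM against 46.5 to 49.2 CPM, with 2 of 10 higher and Pvalb and Klk1 at 0 in both. Trpm6 made up most of that sum (1.79 ± 0.195 and 44.9 ± 1.30 CPM, n = 4 each), and Umod was at 0 to 0.07 CPM in control and 0 to 0.11 CPM in roxadustat libraries. Of 10 endothelial markers 5 and of 10 pericyte and smooth muscle markers all were lower. The part of these cell types in the differences of the 10 genes was not tested.

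**Figure D4:**
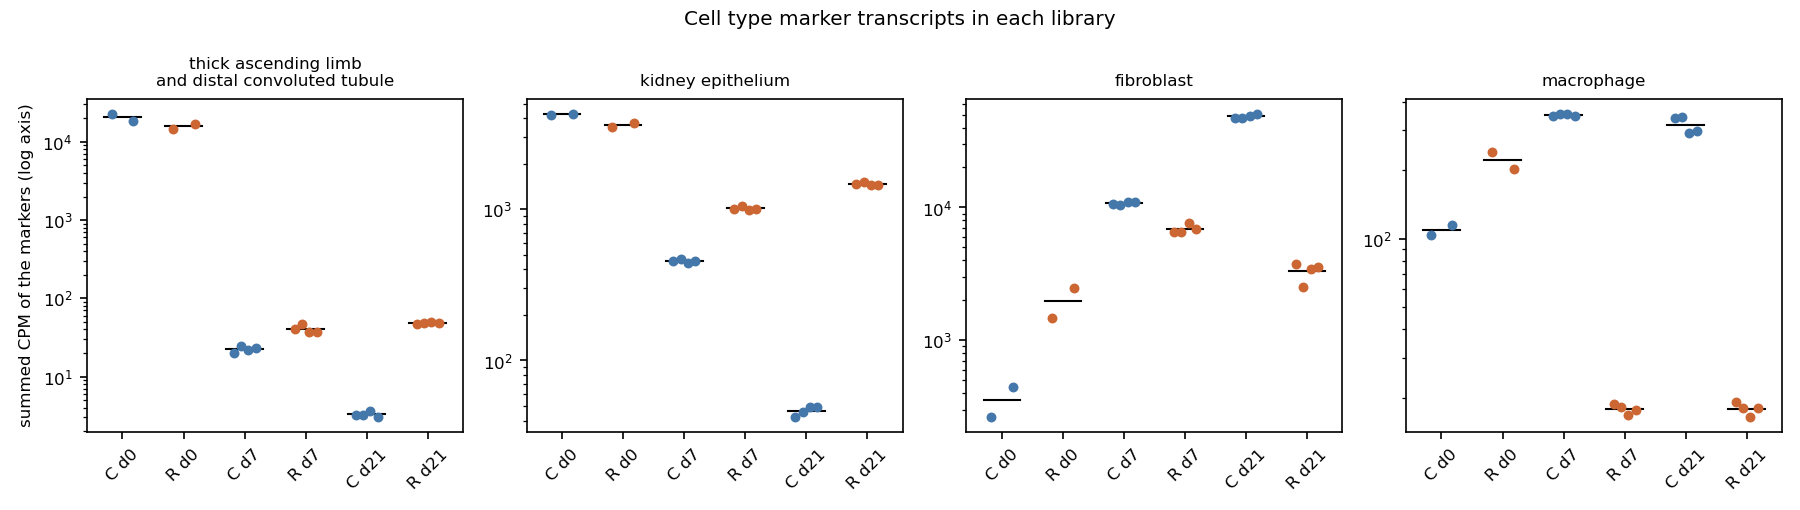
Summed level of 10 marker genes per cell type in each library, in CPM on a log axis. Points are libraries, black bars are group means, C (blue) is control and R (orange) roxadustat. At day 21 the epithelial sum is 42.1 to 49.0 CPM in control and 1451 to 1506 CPM in roxadustat libraries, and the fibroblast sum is 47260 to 50520 against 2518 to 3762 CPM.

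Other genes of the pathway were read from lists by role, and their counts stand beside the shares of all tested genes called, 6.83% at day 0, 47.7% at day 7 and 62.9% at day 21. Of 5 further ErbB ligands 3 were tested (not Epgn and Nrg3), and all 3 were higher in roxadustat cells at day 21 (30% of all genes). Nrg1, the gene of the ERBB3 and ERBB4 ligand neuregulin 1, was at 33.96 ± 6.42 CPM in fresh control cells. At day 7 it was at 31.3 ± 2.25 CPM in control and 87.7 ± 6.80 CPM in roxadustat cells, and at day 21 at 20.5 ± 1.79 and 113 ± 4.89 CPM (2.80-fold and 5.51-fold, adjusted p = 5.97e-11 and 7.13e-15). At day 21 Nrg4 was at 1.61 ± 0.266 and 2.80 ± 0.353 CPM (1.77-fold, adjusted p = 0.000786), and Nrg2 was near the limit of detection, at 0.139 ± 0.0948 and 0.364 ± 0.121 CPM (adjusted p = 0.0356).

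Among 10 tested sheddases, which release the ligands from the membrane, and their partners, which include the inhibitor gene Timp3, 1 rose and 9 fell with roxadustat at day 21 (30% and 32.9% of all genes). Their median log2 fold change was -1.03 beside 0 for all genes. Adam12, a metalloprotease that can shed HB-EGF, was at 230.4 ± 24.3 CPM in control and 47.5 ± 2.92 CPM in roxadustat cells (4.86-fold lower). Adam9 (2.75-fold), Adam19 (3.35-fold) and Timp3, an inhibitor of such proteases (2.77-fold), were lower too. At day 7 2 were higher and 6 lower (24.1% and 23.6% of all genes), with Adam12 2.01-fold lower and Timp3 2.09-fold higher, and at day 0 Adam12 was higher (5.21-fold) and Timp3 lower (1.52-fold). Of 12 receptor adaptors and ubiquitin ligases, 0 were higher and 5 lower at day 7 (24.1% and 23.6% of all genes). At day 21 1 was higher and 6 lower (30% and 32.9%). The total called was no larger a share than over all genes (47.7% and 62.9% called), but most of the calls were lower. Shc1, an adaptor that couples receptors to RAS, was 1.41-fold lower at day 7 and 2.27-fold lower at day 21.

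Of 15 inhibitors of ErbB and ERK signalling, 9 rose and 5 fell with roxadustat at day 21 (30% and 32.9% of all genes; median log2 fold change 0.56 beside 0). Dusp6, an ERK phosphatase, was at 45.7 ± 2.02 CPM in control and 332 ± 13.6 CPM in roxadustat cells (7.27-fold, adjusted p = 3.34e-25), and Spry1, a Sprouty feedback inhibitor, at 66.2 ± 3.26 and 271 ± 5.82 CPM (4.10-fold). Ptprj, a receptor phosphatase, was 2.63-fold higher, and Socs3, a cytokine signalling inhibitor, was 4.12-fold lower. At day 7 4 were higher and 5 lower (24.1% and 23.6% of all genes), and at day 0 2 were higher and 3 lower (2.73% and 4.11%), with Dusp6 1.21-fold higher and Socs3 1.45-fold lower at day 0. Of 12 genes that respond to ERK, 5 were lower at day 0 (4.11% of all genes) and 9 were higher and 2 lower at day 21 (30% and 32.9%; median 1.26 beside 0). At day 7 3 were higher and 3 lower, a share near the 47.7% of all genes called. At day 21 Ier3 was 5.11-fold, the transcription factor gene Etv4 3.91-fold and the urokinase receptor gene Plaur 2.55-fold higher, and Emp1 was 13.1-fold lower. At day 7 Etv4 was 1.79-fold and Hmga2 3.32-fold lower, and Ier3 was 1.86-fold and Fosl1 1.74-fold higher. All day 0 counts of the pathway lists are from the fit of all 20 libraries. The edgeR fit of the 4 fresh libraries alone called only 23 of 15575 genes. The level of these genes is RNA, and phosphorylation of the receptors or of ERK was not measured.

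**Figure D5:**
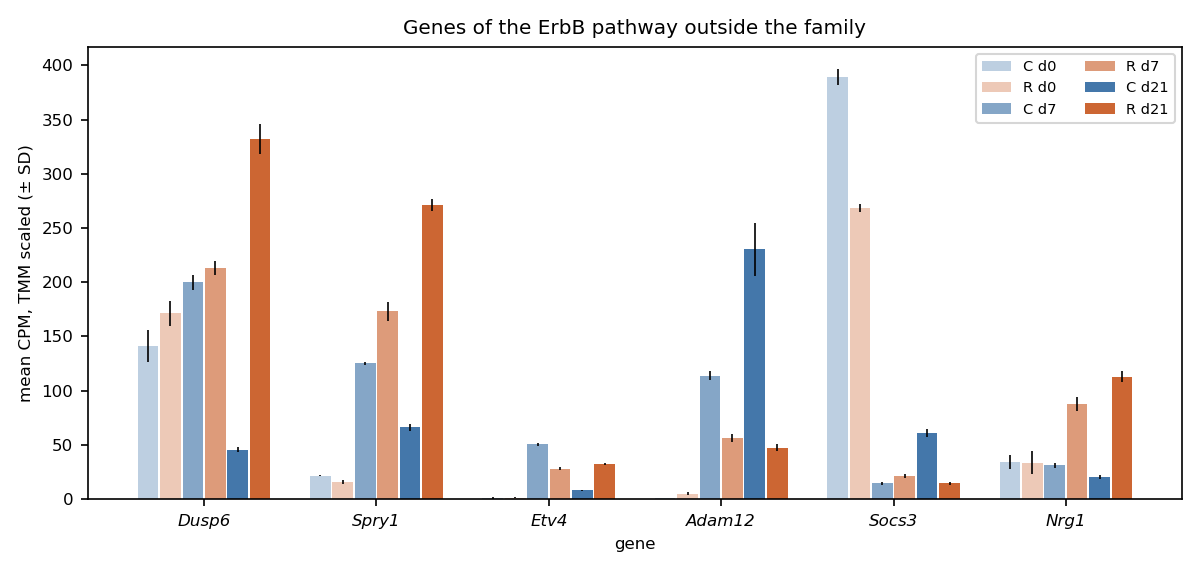
Mean level with SD of 6 genes of the pathway outside the family in each group, in CPM scaled by TMM, with C (blue) for control and R (orange) for roxadustat and darker bars for later times. At day 21 Dusp6 (332 against 45.7 CPM) and Nrg1 (113 against 20.5 CPM) are higher in roxadustat cells, and Adam12 (47.5 against 230.4 CPM) is lower.

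Ordered by level over the 6 groups, Egf, Hbegf, Tgfa, Erbb2, Erbb3 and Erbb4 were highest in fresh control cells, Btc in fresh roxadustat cells, Areg and Ereg in roxadustat cells at day 21 and Egfr in control cells at day 21. Control cells at day 21 were lowest for Areg, Hbegf, Tgfa, Btc, Erbb3 and Erbb4. The ratio of the highest to the lowest group mean was 3266 for Egf, 957 for Ereg, 333 for Erbb3, 71.2 for Erbb4, 32.1 for Btc, 25.2 for Hbegf, 18.7 for Areg, 7.36 for Tgfa, 4.31 for Egfr and 3.05 for Erbb2. In the order of Ereg and of Hbegf no neighbouring groups overlapped in their libraries. In that of Erbb4 the top 3 groups overlapped (fresh control, roxadustat at day 21, fresh roxadustat). Neighbours overlapped among the top 5 groups of Tgfa and among the 4 cultured groups of Egf, but not every pair did. Tgfa in fresh control cells (2.99 to 4.41 CPM) lay above control cells at day 7 (0.698 to 1.36 CPM). Egf in control cells at day 7 (1.62 to 2.01 CPM) lay below roxadustat cells at day 21 (2.25 to 2.89 CPM). Both fresh groups overlapped for Areg, Btc, Egfr and Erbb3.

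The genes most like each member were read off over all 20 libraries, as Pearson r of log2(CPM + 0.5) among genes with a mean of at least 5 CPM. These values describe libraries that share groups, depth and cell make-up. Closest to Egf were Acsm1, the thiazide-sensitive transporter gene Slc12a3 and Cldn8 (r = 0.998 each), and closest to Erbb3 were Keg1, Slc47a1 and Slco1a6 (0.998, 0.996 and 0.995). Erbb4 was most like Cd24a, Col4a3 and Gprc5c (0.995, 0.993 and 0.992), and Btc most like Tpd52, Svip and Aif1l (0.993, 0.991 and 0.991). Hbegf was followed by Cnnm4, Enpep and Myo5c (0.990, 0.986 and 0.983), Ereg by 3110039I08Rik, Thbs1 and Tnfrsf23 (0.991, 0.990 and 0.989), and Egfr by Ust, Foxc2 and Mdga1 (0.991, 0.990 and 0.988). Areg was closest to Itga3, Fgd3 and Lmo1 (0.987, 0.978 and 0.976), Erbb2 to Ogdh, Pdk2 and Vwa8 (0.993, 0.988 and 0.987) and Tgfa to Afdn, BC034090 and Zswim5 (0.931, 0.929 and 0.929). Within the family Ereg was most like Egfr (0.959), Egf like Erbb2 (0.958), and Btc like Hbegf (0.955) and Erbb4 (0.947), while Egf and Ereg ran opposite (-0.972).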

How the data were processed

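RNA of 20 libraries was analysed from raw counts per Ensembl gene, which the authors deposited as 1 table per library. Per the submitters' processing notes the tools were bcl2fastq, STAR 2.5.2a and featureCounts 1.5.0-p1 with the mm10 genome, and the annotation release is not given in the sources used here. Libraries were unstranded mRNA per the labels' protocols, so antisense overlaps cannot be separated. Groups were taken from the treatment and time labels. Symbols, coordinates and exon lengths came from GENCODE M21 (GRCm38), which held 47310 of 47729 genes.

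All 20 libraries in 6 groups entered a single fit with edgeR 4.0.16 in R 4.3.3 (filterByExpr, TMM, robust quasi-likelihood F test, Benjamini-Hochberg adjustment over 18731 genes, adjusted p threshold 0.05). Levels are CPM scaled by TMM, and each SE was derived from the log2 fold change and its F statistic (its size over the root of F). Alternatives were DESeq2 1.42.0, its size factors, library size alone, no filter, a mean of at least 1 CPM, the replicate block, only the groups compared, and leaving out each library. The test was also run on simulated data in which far fewer genes changed than were called here, so that check does not cover comparisons with many changes. Intervals cover counting error only.

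The members and all gene lists were chosen with earlier results of these data known. All 10 members are named, and at most 4 called genes per pathway list and comparison, by smallest p. Cdh16, Pkhd1, Epcam, Cdh1, Pdgfra, Thy1, Col1a1, Col1a2, Col3a1, Umod and Ly6a were chosen after their values were seen.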

Additional observations from a re-analysis of the deposited data

Results flagged for a closer look

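Each of the 10 genes was looked at in the 4 groups of 4 libraries. In 2 of these 40 sets a library lay far from the others, and chance alone gives about 1 in 20. Egf was at 4.01 CPM in roxadustat replicate 2 of day 7, above the other libraries of its group, and Erbb4 was at 1.66 CPM in control replicate 1 of day 21, below the others. The former library also held more Umod (4.44 CPM).

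The roxadustat effect differed between times for several genes, as tested by the interaction in the fit of all libraries. Between day 0 and day 7 the exposure also changed, from injection to medium with roxadustat, with or without an earlier injection. From day 0 to day 7 the log2 difference was -3.41 for Ereg, 1.496 for Tgfa, 0.57 for Btc, -0.41 for Egfr, 1.30 for Erbb3 and 1.39 for Erbb4. From day 7 to day 21 it was 4.07 for Areg, 1.18 for Ereg, 3.77 for Hbegf, 1.03 for Tgfa, 3.09 for Btc, 2.69 for Erbb3 and 4.88 for Erbb4. Neighbouring intervals share the day 7 libraries, so the 2 sets are not independent.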

How the results depend on the processing

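Apart from the refits without 1 library, 601 values of single genes kept their direction and side of the threshold, 16 lost and 9 gained a call, and 3 reversed. All 3 reversed with scaling by library size alone: Egfr in roxadustat against control cells at day 21 (0.0462), Erbb4 from day 0 to day 7 in roxadustat cells (0.0067) and Egfr from day 7 to day 21 in control cells (-0.0118). That scaling moved the median of all genes by 0.34 at day 21, by 0.42 and 0.43 from day 0 to day 7 in control and roxadustat cells and by -0.19 from day 7 to day 21 in control cells. At day 0 edgeR called 0 of 9 tested members in a fit of the 4 fresh libraries (1 had an unadjusted p under 0.05, and DESeq2 called 1, Hbegf). Over all genes that edgeR fit called 23 of 15575. When 1 library was left out, the counts of all comparisons but day 0 stayed within 1.5 times of those reported, and that of day 0 did not. Refits without 1 of the fresh libraries keep a single fresh library in 1 arm, whose spread is taken from the remaining groups. Deviations of libraries with the same replicate number had correlations of -0.27 to 0.10, and not every library correlated best with its own number. The numbers were not treated as pairs in the main fit. With 2 or 4 libraries per group these values cannot show if same-numbered libraries share an animal or dish. With the replicate block Erbb3 from day 7 to day 21 in roxadustat cells (adjusted p = 0.051) and the interactions of Btc (0.0552) and Tgfa (0.0525) lost their calls and no other call changed. Tgfa, Areg and Btc had under 10 CPM in all groups, which limits their precision.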
